A study of Mus musculus with 4 samples.

Results

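The genes that encode the histones, the proteins around which DNA is wound into nucleosomes, were examined in a Foxp1 ChIP-seq study of mouse mammary epithelium. They were taken from the series' gene count table by symbol: 69 clustered genes (symbols starting with Hist1h, Hist2h, Hist3h or Hist4h) and 16 lone variant genes (symbols starting with H2af, H3f or H1f), 85 of the 24548 genes in the table. Of these, 62 had at least 40 reads summed over the 4 libraries and were tested, among 23128 such genes: 46 of the 69 clustered genes and 16 of the 16 lone variants.

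Foxp1 is a forkhead transcription factor, and ChIP-seq recovers the DNA bound to a protein with an antibody and counts it by sequencing. The 4 libraries were a Foxp1 ChIP and an input (chromatin with no antibody) from basal epithelial cells, and the same pair from luminal epithelial cells, all from wild-type female mice of 10 to 12 weeks. The strain is given as FVB/N in the series' design and as FBV/N in the sample labels. The labels name no treatment, transgene or deletion, and the number of mice pooled was not given in the sources used here. Each group was 1 library, so no spread between samples could be estimated and no p-value is given. The DNA libraries measure no expression, and the labelled cell types cannot be checked by it. By the rule given below, 2 of 6 basal markers (Krt14 and Krt5) were called higher in basal ChIP, as were 4.24% of all tested genes, with Trp63 (-0.00) and Myh11 (0.04) flat on the log2 scale. In luminal ChIP 2 of 7 luminal markers (Gata3 and Krt8) were called higher, as were 1.5% of all tested genes, and Elf5 had an interval below 1 (0.531 to 0.957-fold). Of 7 genes marking endothelial, immune, stromal or fat cells, 0 were called higher or lower in either. Lower calls took 4.06% of all tested genes in basal and 2.13% in luminal ChIP, so few would be called among any 7. In luminal cells 2 of the 7 lay above 0, and the interval of Col1a1 lay above 1 (1.04 to 1.8-fold).

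Most histone proteins are made in S phase from clustered genes without introns, whose messages end in a stem-loop instead of a poly(A) tail. Npat switches these genes on at the start of S phase, and the stem-loop binding protein Slbp and the U7 particle form the message's end. Variant histones come from genes that lie alone in the genome, are made outside S phase as well, and replace the standard histones at particular places or in particular cells. The linker histone H1 binds the DNA between nucleosomes, and H2A, H2B, H3 and H4 form the core.

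Promoter sequences are given here for some members whose reads stood out, and no tie between sequence and reads was tested. Under a window inferred below, the DNA counted for Hist1h2ah, Hist1h2bk, Hist1h4m and Hist1h4n lies outside the printed sequences. RefSeq entries (GRCm38.p6, which is the mm10 assembly) were matched for 76 of the 85 genes. Each line gives the 250 bases before the start, 5′ to 3′ on the gene's strand, and capitals mark matches to 4 motifs on either strand: the forkhead core TGTTTAC, the CCAAT box CCAAT, the TATA box TATAAA and the octamer ATTTGCAT. The first set holds the clustered H4 gene with the highest basal ratio, Hist4h4 (chr6:136804432-136804681, minus strand), and both genes of the H3 variant that is made throughout the cell cycle, H3f3a (chr1:180813606-180813855, minus strand) and H3f3b (chr11:116024505-116024754, minus strand).
Hist4h4: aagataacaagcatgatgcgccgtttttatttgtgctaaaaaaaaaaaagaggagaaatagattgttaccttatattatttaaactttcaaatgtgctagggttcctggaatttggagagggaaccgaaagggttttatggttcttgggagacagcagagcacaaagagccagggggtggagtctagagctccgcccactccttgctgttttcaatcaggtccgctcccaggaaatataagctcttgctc
H3f3a: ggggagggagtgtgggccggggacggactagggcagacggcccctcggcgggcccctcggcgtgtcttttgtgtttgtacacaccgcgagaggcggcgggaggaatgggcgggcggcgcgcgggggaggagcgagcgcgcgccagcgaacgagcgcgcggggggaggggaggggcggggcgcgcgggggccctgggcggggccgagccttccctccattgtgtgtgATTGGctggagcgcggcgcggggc
H3f3b: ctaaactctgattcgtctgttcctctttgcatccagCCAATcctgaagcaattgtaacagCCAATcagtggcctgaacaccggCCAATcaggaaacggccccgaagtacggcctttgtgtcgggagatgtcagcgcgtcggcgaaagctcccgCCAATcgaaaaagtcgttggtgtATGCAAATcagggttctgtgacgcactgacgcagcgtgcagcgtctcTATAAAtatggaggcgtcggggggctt
Hist4h4 held none of the 4 motifs, H3f3a held 1 CCAAT box, and H3f3b held 4 CCAAT boxes, 1 octamer and 1 TATA box.

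The second set is the divergent pair that differed most between basal and luminal cells, Hist1h2ah (chr13:22035644-22035893, minus strand) and Hist1h2bk (chr13:22035571-22035820, plus strand). Their starts lie 178 bp apart, so much of the same DNA is read from both strands.
Hist1h2ah: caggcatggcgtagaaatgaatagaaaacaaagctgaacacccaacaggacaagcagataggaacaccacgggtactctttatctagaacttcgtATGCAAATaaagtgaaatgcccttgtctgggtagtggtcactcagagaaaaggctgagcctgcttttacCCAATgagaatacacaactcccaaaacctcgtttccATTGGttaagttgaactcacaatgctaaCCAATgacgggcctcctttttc
Hist1h2bk: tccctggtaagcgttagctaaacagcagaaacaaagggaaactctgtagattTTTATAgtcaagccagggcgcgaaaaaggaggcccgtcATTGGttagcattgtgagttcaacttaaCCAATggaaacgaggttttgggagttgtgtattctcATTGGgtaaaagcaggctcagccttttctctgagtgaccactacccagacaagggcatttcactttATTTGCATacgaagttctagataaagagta
Both carried the octamer and 3 CCAAT boxes, and Hist1h2bk also a TATA box match, far from its start.

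The third set is a duplicated pair, Hist1h4m (chr13:21811496-21811745, plus strand) and Hist1h4n (chr13:21832198-21832447, minus strand), whose upstream bases were the same at 249 of 249 positions after a shift of the frame.
Hist1h4m: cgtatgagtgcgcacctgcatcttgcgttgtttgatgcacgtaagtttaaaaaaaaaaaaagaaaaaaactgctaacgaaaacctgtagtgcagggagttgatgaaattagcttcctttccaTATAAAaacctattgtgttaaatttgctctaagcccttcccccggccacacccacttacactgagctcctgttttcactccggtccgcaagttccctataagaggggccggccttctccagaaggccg
Hist1h4n: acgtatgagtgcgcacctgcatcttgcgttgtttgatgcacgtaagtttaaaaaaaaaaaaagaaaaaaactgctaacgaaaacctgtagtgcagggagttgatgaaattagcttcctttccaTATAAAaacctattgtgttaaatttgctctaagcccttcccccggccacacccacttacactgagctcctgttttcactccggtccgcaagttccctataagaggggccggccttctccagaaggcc
Hist1h4m had 0 reads in all 4 libraries and Hist1h4n 57.

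Across the family, 0 of 76 promoters held the forkhead core, which was present in 3.09% of the 27025 promoters in the RefSeq table (1 per gene). The CCAAT box was found in 59 of 76 (77.6%, against 34.5% of all promoters), the TATA box in 30 (39.5% against 13%) and the octamer in 14 (18.4% against 1.61%). Among the clustered classes, the octamer stood in 7 of 18 H2A and 6 of 16 H2B promoters and in none of the 6 H1, 10 H3 and 12 H4 promoters. The same site can count in both classes: Hist1h2ah and Hist1h2bk share their octamer, read from opposite strands. The CCAAT box was in 6 of 6 H1, 18 of 18 H2A, 16 of 16 H2B and 8 of 10 H3 promoters, but in 3 of 12 H4 promoters. Among the 14 lone variants with an entry, 8 held a CCAAT box, and H3f3b was the 1 gene with a TATA box and the 1 with an octamer. Clustered promoters had a median GC content of 44.8%, lone variants 56.6% and all promoters 52%. These are matches of letters in a fixed window and not binding sites.

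The first measured property of the family was its low read count. Of the 69 clustered genes, 20 (28.99%) had 0 reads in all 4 libraries, against 848 genes (3.454%) of the whole table, and 3 more had 1 to 39. The 20 were 10 of 19 H2B, 6 of 19 H2A, 3 of 12 H3 and 1 of 13 H4 genes, and 0 of 6 H1 genes. None of the 16 lone variants was at 0. The median over the 4 libraries was 108 reads in clustered genes, 605 in lone variants and 620 in the whole table. By class, the clustered median was 0 for H2B, 45.5 for H3, 92 for H2A, 493 for H1 and 606 for H4.

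The low counts were set beside how close the genes lie. The counts were taken per gene, with the bases that belong to a gene not given in the sources used here. From 3370 other genes with a neighbouring start within 6000 bp, the input counts were matched best by a window from 3000 bp before to 2000 bp after each start, with reads in the windows of 2 genes left out. The typical deviation from that prediction was 22.97 reads, and 28.32 for the next best window. A correlation, tried first, had placed windows of 3000 and 3000, 4000 and 4000, and 3000 and 2000 bp close together (Pearson r across genes 0.555, 0.5516 and 0.5496), so the window is an inference from these same input counts, and overlap as the source of the low counts was not tested apart from it. A gene's own bases are those of its window that no other gene's window covers.

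For 60 histone genes the strands of all neighbours were known. Of them, 12 had no own base, and 12 of those 12 had 0 input reads. Among other genes with no own base, 69 of 85 had 4 or fewer input reads. The 19 histone genes with more than 500 and up to 1000 own bases had a median of 60 input reads, and the 1298 other genes of that range also 60. With more than 1000 and up to 2000 own bases, 6 histone genes had 130 and other genes 85. The 11 histone genes with a whole window of their own had 427, and 13252 other genes 360. At a given number of own bases under this window, histone medians were level with or above those of other genes, except in 3 genes with up to 500 own bases, at 0 against 24.5.

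Of the 48 histone genes with own bases, 7 still had fewer than 5 input reads: Hist2h2aa1, Hist2h2aa2, Hist2h3c1, Hist2h3c2, Hist1h4m, Hist1h2ap and Hist1h2ao. Each has a near copy among the members by the bases before its start. Those bases matched at 100% of 150 compared in Hist1h2ao and Hist1h2ap, 99.57% of 235 in Hist2h3c1 and Hist2h3c2, and 94.76% of 210 in Hist2h2aa1 and Hist2h2aa2. These upstream bases lie outside the inferred own bases of the 7 genes, and the own bases themselves were not compared. The treatment of reads that fit 2 places was not given in the sources used here, so values of these genes are uncertain. Similarity was no sure sign of a low count: Hist1h4j and Hist1h4k matched at 95.76% and had 819 and 537 reads.

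**Figure D1:**
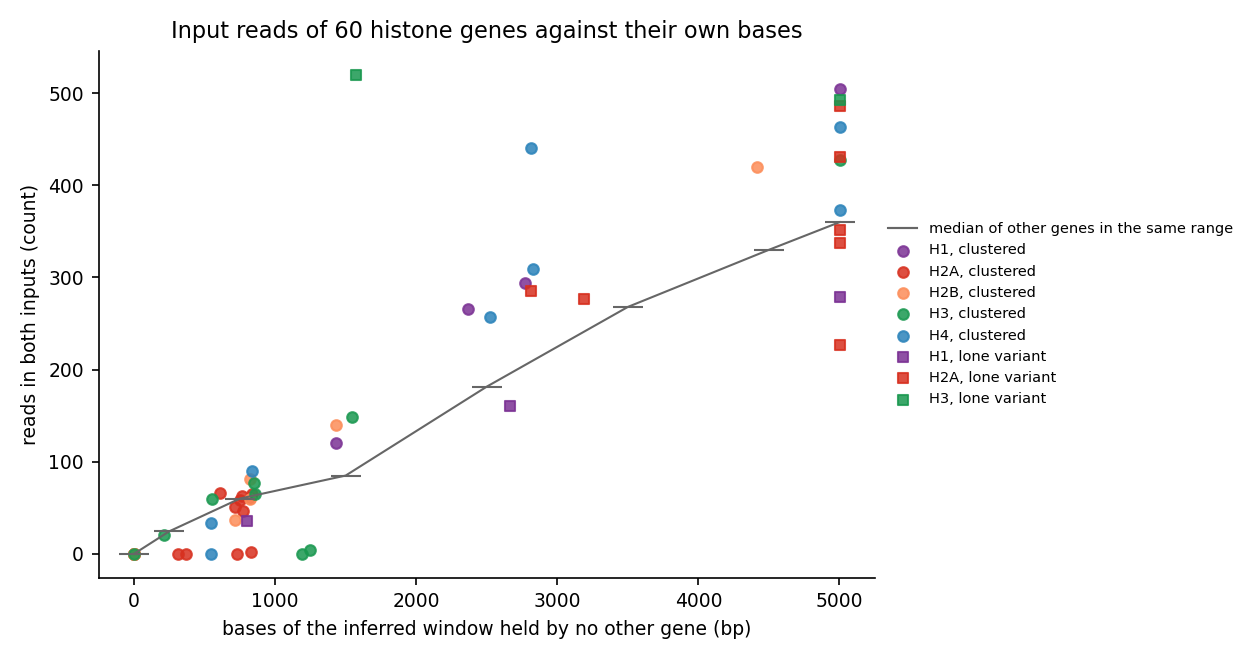
Reads summed over both inputs (count, vertical axis) against bases of the inferred window held by no other gene (bp, horizontal axis) for 60 histone genes. Colours are histone classes, circles clustered genes, squares lone variants, and the line joins medians of other genes; the genes with no own base sit at 0, and H3f3b stands highest at 520 reads.

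H3f3b stood apart, with 520 input reads on 1577 own bases. Its window was placed on the outer end of the gene, 1535 bp from the start of its RefSeq promoter entry. A window on that entry would hold 3112 own bases and the whole promoter. Hist4h4 was next, with 440 input reads on 2817 own bases, 156 per kb against 101 per kb in its neighbour H2afj, which has the same number of own bases.

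If the inferred window holds, the overlap also sets which DNA the counts describe. Under it, of 48 clustered genes with known neighbours, the bases from 250 before to 50 after the start were wholly counted in 9, partly in 2 and not at all in 37. The 9 were Hist1h1b, Hist1h1c, Hist1h1d, Hist1h2bm, Hist1h3e, Hist1h4d, Hist1h4j, Hist1h4k and Hist4h4. For the divergent pair Hist1h2ah and Hist1h2bk, the 822 own bases of each lie from base -3000 to base -2179 of its start, past the partner gene, and the promoters printed above fall outside them. Under the same window, a value for most clustered genes is one for DNA some way from the start.

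**Figure D2:**
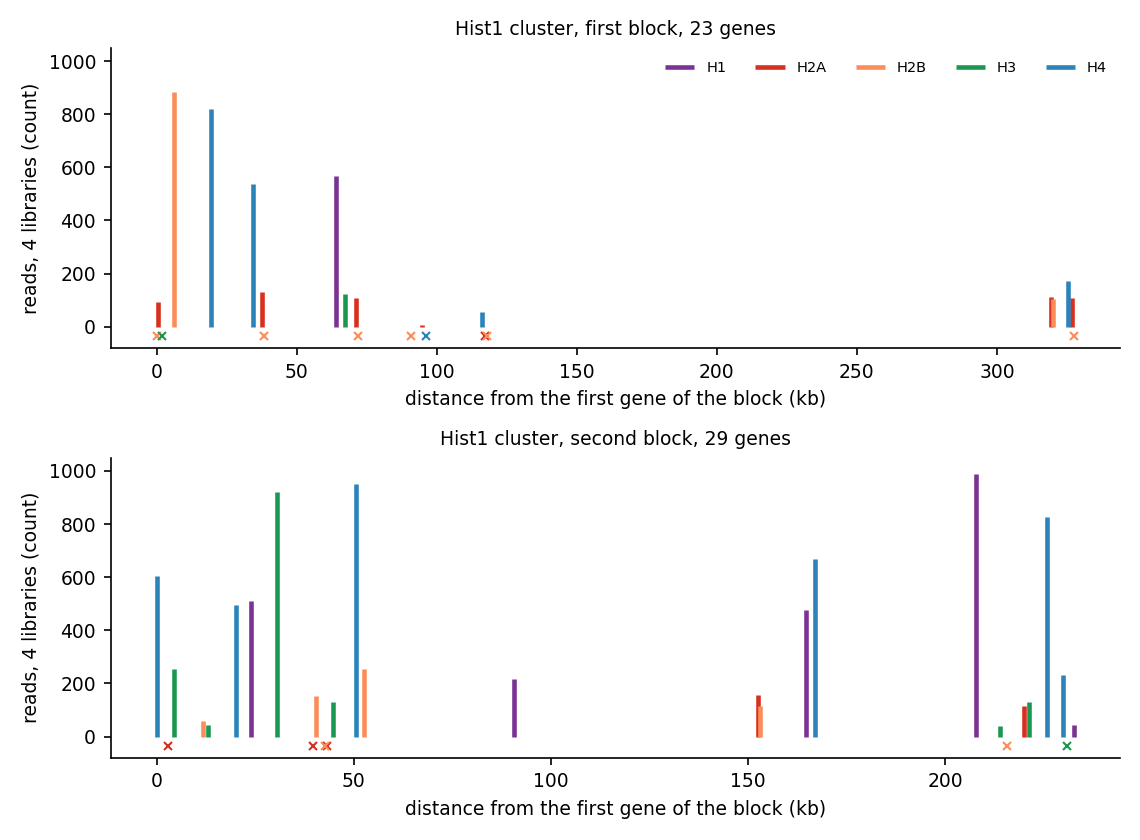
Reads summed over the 4 libraries (count, vertical axis) by distance from the first gene of the block (kb, horizontal axis) in both large blocks of the Hist1 cluster, with 23 and 29 genes. Bars are genes coloured by class and crosses mark the genes at 0; tall bars stand where genes are spaced out, and the 9 and 6 crosses stand among close neighbours.

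The Hist1 cluster holds 55 of the 69 clustered genes, on chromosome 13. A first block of 23 genes spans bases 21715711 to 22043658, a second of 29 genes bases 23531044 to 23764412, and 2 genes lie at 23933725 to 23934913. Hist1h2al, which RefSeq lists as a pseudogene, lies apart from them near base 51200084. The Hist2 cluster has 10 genes on chromosome 3 (96219885 to 96270192) and the Hist3 cluster 3 genes on chromosome 11 (58948911 to 58955192). Hist4h4 is on chromosome 6 (136803993 to 136804431). At 0 were 15 of the 55 Hist1 genes and 5 of the 10 Hist2 genes.

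The ChIP libraries had 3772902 (basal) and 3163948 (luminal) reads in genes, and the inputs 3080114 and 4201459. Histone genes took 0.183% and 0.193% of the ChIP reads and 0.181% and 0.189% of the input reads, so the family as a whole was recovered by the antibody about as it stood in input. Ratios below are log2 of ChIP over input after scaling by TMM factors, and a fold of 1 (log2 of 0) is no difference. Intervals are exact 99% intervals of the counts and cover counting error only. A call, higher or lower, needs a difference of at least 1.5-fold and an interval without 1.

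In basal cells, the histone genes were close to background in Foxp1 ChIP over input. Of 62 tested, 2 were called higher, Hist4h4 and H3f3a, and 2 lower, Hist1h2ah and Hist1h2bc. That is near the share of all 23128 tested genes, of which 4.24% were called higher and 4.06% lower. The median log2 ratio was -0.13 over the 46 clustered genes, 17 of them above 0, and 0.17 over the 16 lone variants, 10 of them above 0, beside -0.01 over all tested genes. Centred on olfactory receptor genes, the clustered median turned to 0.0825. Depth moved with this split: the 25 clustered genes with 150 or more reads had a median of 0.06 and the 21 below that -0.41, while all genes of those depths had -0.00 and -0.24. Lone variants with 150 or more reads (15 genes) had 0.11. The part of depth in the difference between the classes was not tested. Under the inferred window, the 9 clustered genes with the promoter wholly counted had medians of 0.27 in basal and 0.26 in luminal cells. The 17 tested ones with none of it counted had -0.24 and -0.06. Other genes had 0.00 and 0.01 with it wholly counted, and -0.12 and -0.06 with none. Lone variants had 0.22 and 0.02 (9 genes) against 0.38 and 0.37 (3 genes). The 3 include H3f3b, whose own luminal ratio is the 0.37. With its window on the RefSeq promoter entry, H3f3b would instead have its promoter wholly counted. Depth moved with this split too (median 685 and 127 reads in other genes), and its part was not tested.

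Hist4h4, which encodes core histone H4, had 331 reads in basal ChIP and 170 in basal input, a log2 ratio of 0.72 (1.65-fold, 1.29 to 2.12). It had 253 in luminal ChIP and 270 in luminal input, a log2 ratio of 0.35 (1.28-fold, 1.01 to 1.6). Hist4h4 counts as clustered by its symbol only: the nearest histone gene is H2afj, classed here as a lone variant, 3.8 kb away. The basal ratio of Hist4h4 was above those of 97.3% of tested genes. H3f3a and H3f3b are separate genes for the same protein, H3.3, which is placed into chromatin outside replication. H3f3a (chromosome 1, 180802560 to 180813605) had 338 ChIP and 191 input reads in basal cells and 296 and 302 in luminal cells, log2 ratios of 0.59 and 0.42. Its basal fold of 1.5 lies at the limit for a call, and the call was lost under 4 of 8 alternative settings. H3f3b (chromosome 11, 116021961 to 116026039) had 344 and 209 in basal cells and 296 and 311 in luminal cells, log2 ratios of 0.48 and 0.37. Both H3.3 genes thus had intervals above 1 in both cell types (H3f3b 1.11 to 1.76 and 1.05 to 1.6), and 1 of these 4 values passed the fold for a call.

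These ratios belong to deeply covered genes, and such genes had higher ratios throughout the table. Among 5412 tested genes with 800 to 1200 reads over the 4 libraries, ChIP reads included, the median basal ratio was 0.26 and 11.8% were called higher. The 13 histone genes in that range had a median of 0.22, with 2 called higher. Of the 5412 genes, 4.93% had a higher basal ratio than Hist4h4, 11.6% than H3f3a and 21% than H3f3b. In luminal cells the 5412 genes had a median of 0.14 and the 13 histone genes 0.37, with 18% above Hist4h4, 10.9% above H3f3a and 15.5% above H3f3b. The range was set after the values were seen.

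**Figure D3:**
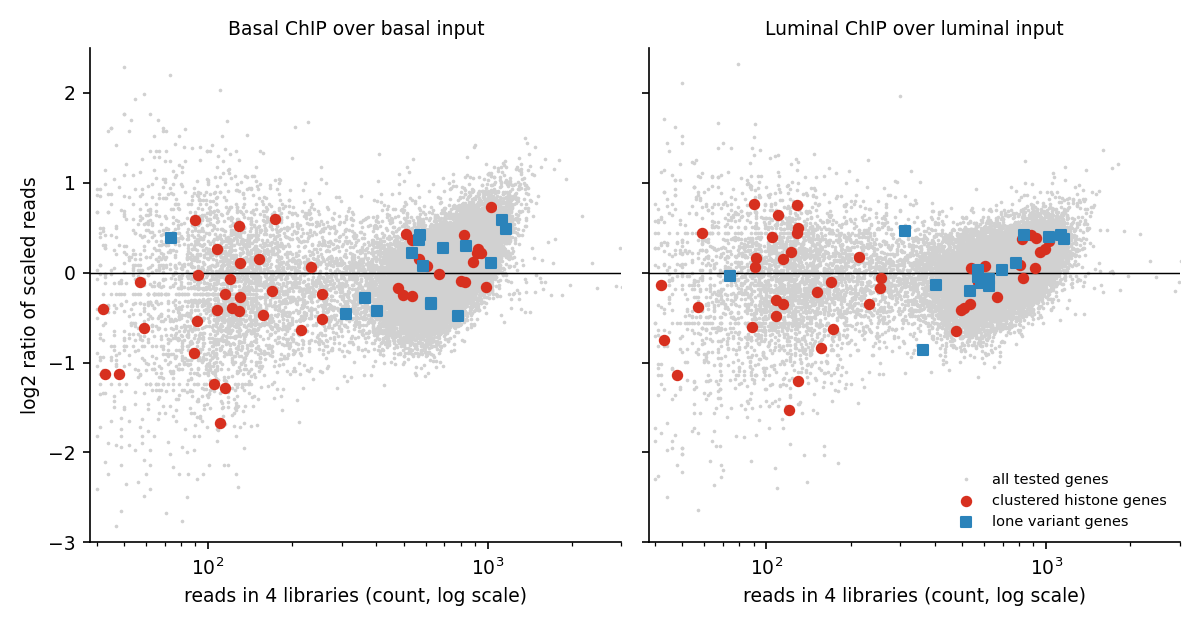
ChIP over input (log2 ratio of scaled reads, vertical axis) against reads summed over the 4 libraries (count, log axis) in basal and luminal cells, with each tested gene in grey, clustered histone genes as red circles and lone variants as blue squares. The histone genes lie within the grey cloud at each depth; 16 tested genes, none a histone gene, fall outside the axes.

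At the other end in basal cells stood Hist1h2ah, a core H2A gene, with 10 ChIP and 27 input reads. Its log2 ratio was -1.67 (0.314-fold, 0.103 to 0.823), and 0.301% of tested genes of all depths lay as low or lower. It had 110 reads over the 4 libraries. Tested genes with at least 40 and under 150 reads had a basal median of -0.24, and 6.64% of them were called lower. Its partner Hist1h2bk, a core H2B gene, had 14 and 28 reads and a log2 ratio of -1.24, but its interval of 0.164 to 1.01 included 1, so it was not called. Hist1h2bc, another H2B gene, had 15 and 31 reads and a log2 ratio of -1.28 (0.411-fold, 0.166 to 0.941). All 3 rest on 15 or fewer ChIP reads. Both lower calls were lost when intervals were widened by the extra spread among olfactory receptor genes, and both higher calls were kept.

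**Figure D4:**
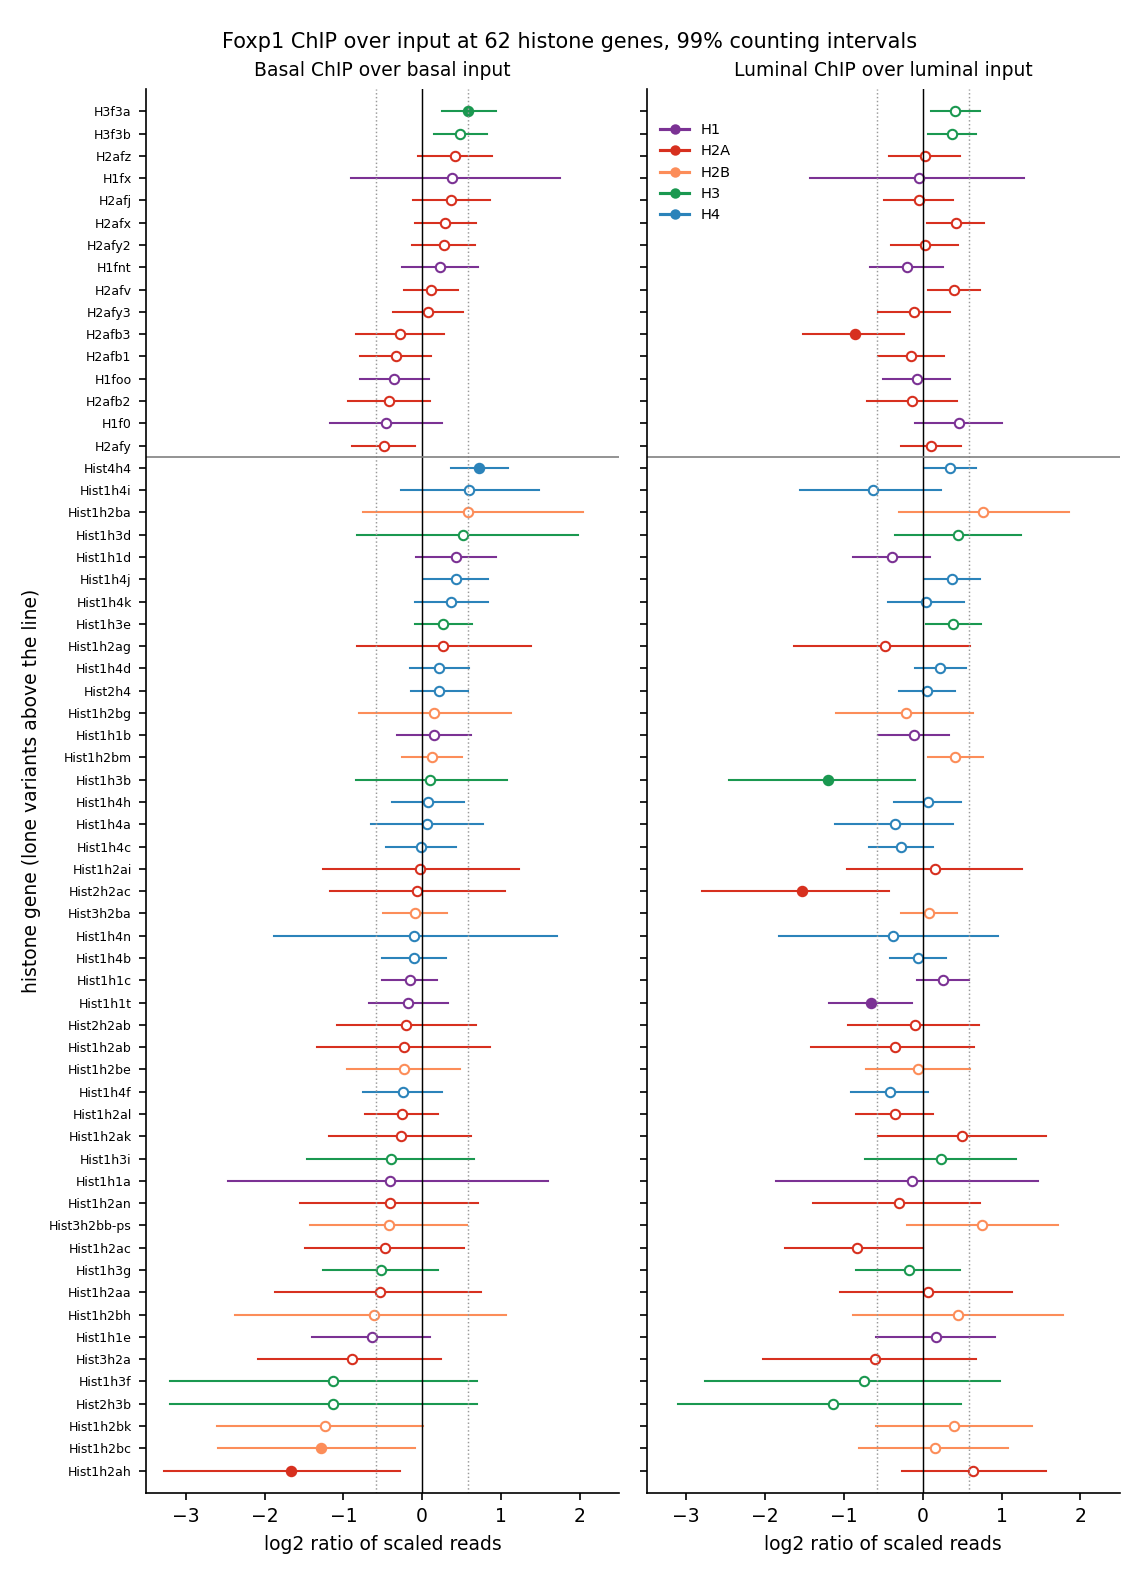
Log2 ratio of ChIP over input (horizontal axis) with 99% counting intervals for the 62 tested histone genes (vertical axis) in basal and luminal cells, lone variants above the line and clustered genes below, coloured by class. Filled points are called genes and dotted lines mark 1.5-fold; Hist4h4 and H3f3a are the 2 filled points above 0, both in basal cells.

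By class, the clustered H4 genes had the highest basal median, 0.14, with 8 of 12 above 0. Their summed reads (1968 over 1428) gave 1.17-fold (1.07 to 1.28). That sum includes the called gene Hist4h4 (331 over 170), and the class was not summed without it. All tested genes summed gave 1.04-fold. Basal input of the H4 genes was also low against luminal input (0.877-fold, 0.803 to 0.957), and these reads are the denominator of the basal ratio. Clustered H2A genes had the opposite lean, with a median of -0.27, 1 of 12 above 0, and a summed fold of 0.799 (0.669 to 0.955). The medians were -0.17 for 6 H1 genes, -0.24 for 9 H2B genes and -0.39 for 7 H3 genes, where summed folds were 0.974, 0.924 and 1.03, each with an interval that included 1. With 150 or more reads the medians were -0.16 for 5 H1 genes, -0.26 for 3 H2A genes, 0.01 for 4 H2B genes, -0.13 for 2 H3 genes and 0.22 for 11 H4 genes. For H3 the median and the sum thus differ in sign, the sum giving more weight to well-covered genes.

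Within each class, single genes spread widely where counts were low. The highest and lowest basal ratios were 0.42 in Hist1h1d (147 over 93 reads) and -0.64 in Hist1h1e (47 over 62) among H1 genes, which encode linker histones. Among H2A genes they were 0.26 in Hist1h2ag (31 over 22) and -1.67 in Hist1h2ah. Among H2B genes the highest was 0.59 in Hist1h2ba (23 over 13), a testis H2B gene, and the lowest Hist1h2bc. Among H3 genes the highest was 0.52 in Hist1h3d (22 over 13), and Hist2h3b and Hist1h3f shared the lowest value of -1.13. H4 genes ran from Hist4h4 down to Hist1h4f at -0.25 (115 over 116). Apart from Hist4h4, Hist1h2ah and Hist1h2bc, none of these genes was called.

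The lone variants are taken by role. H2afz and H2afv encode H2A.Z, which marks nucleosomes next to active starts: H2afz had 168 ChIP and 107 input reads in basal cells and 127 and 170 in luminal cells (0.41 and 0.02). H2afv had 280 and 220, then 257 and 266 (0.11 and 0.39), so its luminal interval of 1.05 to 1.65 lay above 1 and its basal one did not. H2afx encodes the H2A variant that is phosphorylated at DNA breaks, and had 235 and 163, then 216 and 220 (0.29 and 0.42). H2afj had 155 and 102, then 130 and 183 (0.37 and -0.05).

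MacroH2A genes, whose proteins carry a large extra domain and are linked to silent chromatin, differed. H2afy had 169 ChIP and 201 input reads in basal cells, a log2 ratio of -0.49 with an interval below 1 (0.542 to 0.938) that missed the fold for a call. In luminal cells it had 182 and 230 (0.11). H2afy2 had 219 and 154, then 137 and 183 (0.27 and 0.03). H2afy3, which RefSeq lists as a transcribed pseudogene, had 164 and 132, then 117 and 172 (0.08 and -0.11). The basal intervals of the other 2 included 1.

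The lone linker genes were H1f0, whose protein builds up in cells that have stopped dividing, H1fx, H1fnt and H1foo. H1f0 had 55 ChIP and 64 input reads in basal cells and 97 and 96 in luminal cells (-0.46 and 0.46), with both intervals including 1. H1fx had 23 and 15, then 15 and 21 (0.38 and -0.04), the fewest reads of any lone variant. No lone H1 gene was called in either cell type.

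In luminal cells, 0 of 62 histone genes were called higher (1.5% of all tested genes) and 4 lower (2.13%): Hist2h2ac, Hist1h3b, H2afb3 and Hist1h1t. All 4 lower calls were lost with the widened intervals, and H2afb3 and Hist1h1t also at a 2-fold limit. The median was -0.06 over clustered genes, 22 of 46 above 0, and -0.01 over lone variants, 8 of 16 above 0, beside -0.00 over all tested genes. Centred on olfactory receptor genes, these medians turned to 0.00879 and 0.0587. The highest single values were 0.77 in Hist1h2ba (30 ChIP over 24 input reads) and 0.75 in the pseudogene Hist3h2bb-ps (37 over 30), neither called. Intervals lay above 1 without a call for 8 genes: H3f3a, H3f3b, Hist4h4, H2afx, H2afv, Hist1h2bm, Hist1h4j and Hist1h3e. All 8 had 800 to 1200 reads, a range in which 5412 tested genes had a luminal median of 0.14, 3985 of them above 0. The share of all tested genes with such intervals was not computed. Hist1h4j, an H4 gene with a whole window of its own, had 229 over 145 reads in basal and 217 over 228 in luminal cells, 0.42 and 0.37.

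Hist2h2ac, a core H2A gene of the Hist2 cluster, had the lowest luminal ratio of the family, with 14 ChIP and 55 input reads (-1.53, 0.346-fold, 0.143 to 0.743). In basal cells it had 27 and 24 reads (-0.07). Hist1h3b, a core H3 gene, had 15 and 47 reads (-1.2) against 38 and 30 in basal cells (0.10). Both have a basal value near 0, and their luminal call rests on 15 or fewer ChIP reads. The better covered calls were H2afb3, with 51 and 126 reads (-0.86), and Hist1h1t, with 78 and 167 (-0.65, 0.439 to 0.908).

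H2afb3 and Hist1h1t belong to the histones of germ cells. The 8 tested genes of this kind (Hist1h1t, Hist1h2aa and Hist1h2ba from the Hist1 cluster, H1fnt, H1foo, H2afb1, H2afb2 and H2afb3 alone) were put together after their values were seen. Their summed reads were 778 ChIP over 766 input in basal cells, 0.862-fold (0.755 to 0.984), and 638 over 1029 in luminal cells, 0.844-fold (0.740 to 0.961). Without H2afb3 and Hist1h1t, the called genes that prompted the grouping, the folds were 0.864 (0.740 to 1.01) and 0.941 (0.809 to 1.09). The medians of the 8 were -0.31 and -0.14. Olfactory receptor genes had medians of -0.21 and -0.07 over 1089 genes.

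Single germ-cell genes varied around those medians. H2afb1, H2afb2 and H2afb3, short H2A variants of the testis, had basal ratios of -0.34 (137 over 147), -0.42 (101 over 115) and -0.28 (92 over 95). Luminal ratios of H2afb1 and H2afb2 were -0.15 (136 over 205) and -0.13 (75 over 112), neither called. H1foo, the oocyte linker histone, had -0.35 (143 over 155) and -0.07 (135 over 193). H1fnt, the linker histone of spermatids, had 0.22 (147 over 107) and -0.20 (110 over 172). Without the germ-cell genes, the 11 other lone variants had medians of 0.29 in basal and 0.11 in luminal cells.

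The luminal classes had their own order. Clustered H2B genes had a median of 0.40 with 7 of 9 above 0, and a summed fold of 1.18 (1.03 to 1.36) from 673 over 773 reads. All tested genes summed gave 1.025-fold in luminal cells. The 4 H2B genes with 150 or more reads had a median of 0.01, with 2 of 4 above 0. Clustered H2A genes had -0.33 with 4 of 12 above 0, and 0.827-fold (0.695 to 0.983). H1, H3 and H4 medians were -0.12, -0.17 and -0.01. The luminal extremes not yet named were 0.26 in Hist1h1c (242 over 275), 0.64 in Hist1h2ah (39 over 34), -0.21 in Hist1h2bg (33 over 52), 0.44 in Hist1h3d (47 over 47) and -0.63 in Hist1h4i (28 over 59). None of those 5 was called.

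Summed over loci, Hist1, Hist2 and Hist3 had intervals that included 1 in both cell types, and Hist4, which is Hist4h4 alone, was higher in basal cells as given above. The 55 Hist1 genes had 3232 ChIP over 2733 input reads in basal cells, a log2 ratio of 0.01 (0.938 to 1.07-fold), and 2962 over 3989 in luminal cells, 1.01-fold (0.949 to 1.08). The first Hist1 block gave 1.10-fold and 1.13-fold (1.01 to 1.27), the second 0.976-fold and 0.967-fold. Hist2 gave 1.06-fold and 0.889-fold, and Hist3 0.856-fold and 1.08-fold, each with intervals that included 1. All 69 clustered genes gave 1.03-fold and 1.02-fold, and without Hist4h4 log2 ratios of -0.00 and 0.01. The 16 lone variants gave 1.08-fold (1.003 to 1.16) and 1.09-fold (1.017 to 1.17), and without H3f3a and H3f3b 0.997-fold and 1.03-fold. All tested genes summed gave 1.04-fold in basal and 1.025-fold in luminal cells, values inside both intervals of the 16. The luminal value also lies inside the interval of the first Hist1 block. The genes left out were chosen after their values were seen.

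The cell types were compared by the difference of their log2 ratios, basal minus luminal, with intervals from the 4 counts plus 0.5. Of 62 genes, 2 were called higher in basal cells (3.72% of all tested genes) and 4 lower (4.16%). Above 0 in both cell types were 16 genes, below 0 in both 21, above 0 in basal cells alone 11 and in luminal cells alone 14. Of all 23128 tested genes, 11205 lay above 0 in basal and 11476 in luminal cells, and their joint split was not computed. None was called higher in luminal cells, so none could be called higher in both. Hist4h4 differed by 0.37 ± 0.19 (counting SE, 99% interval -0.11 to 0.85) and H3f3a by 0.17 (-0.28 to 0.62), so neither was shown to differ between the cell types.

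The divergent pair led the genes lower in basal cells. Hist1h2ah had 10 ChIP over 27 input reads in basal cells and 39 over 34 in luminal cells, a difference of -2.27 ± 0.62. Hist1h2bk had 14 over 28 and 31 over 32, a difference of -1.61 ± 0.59. Inputs of the pair were alike (27 and 34, 28 and 32), and ChIP reads were low in basal and not in luminal cells. These genes are neighbours, and their own bases lie in 2 separate stretches of 822 bp.

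The other genes lower in basal cells were the lone variants H1f0 (-0.91 ± 0.34) and H2afy (-0.59 ± 0.21). Higher in basal cells were Hist1h4i, with 55 over 31 reads against 28 over 59 (1.20 ± 0.46, 0.01 to 2.38), and Hist1h1d, with 147 over 93 against 97 over 173 (0.81 ± 0.26). The interval of Hist1h4i came close to 0. Hist2h2ac (1.42, -0.08 to 2.93) and Hist1h3b (1.27, -0.14 to 2.68), called lower in luminal cells, were not shown to differ between the cell types. H2afb3 and Hist1h1t likewise had intervals that included 0 (-0.25 to 1.39 and -0.23 to 1.18). With the inputs summed as a common background, Hist1h4i had 0.73, Hist1h1d 0.36 and H2afy -0.34, and their calls were lost. All 6 called differences were lost with the widened intervals.

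The summed reads of clustered H2B genes gave a difference of -0.36 (-0.65 to -0.06), under the fold for a call. Among single H2B genes 1 of 9 had a difference above 0, beside 11645 of all 23128 tested genes. For clustered H4 genes the difference was 0.18 (-0.00 to 0.35), with 10 of 12 above 0. H1, H2A and H3 sums differed by 0.06, -0.05 and -0.05, each with an interval that included 0.

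The inputs alone, which hold no antibody signal, gave 0 histone genes called higher in basal input (0.709% of all tested genes) and 1 lower (0.463%). That gene was Hist1h3d, with 13 reads in basal and 47 in luminal input (-1.41). Its basal ratio of 0.52 therefore rests on an input that was itself low. Hist1h1d had 93 and 173 input reads (0.732-fold, 0.519 to 1.02) and Hist1h4i 31 and 59 (0.716-fold, 0.387 to 1.28), so basal input was the lower in both, within counting error. The same held for Hist4h4 (170 and 270, 0.858-fold, 0.662 to 1.11) and H3f3a (191 and 302, 0.862-fold, 0.675 to 1.10).

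Genes that serve histone production were taken from lists made by function. Of 10 genes for histone gene transcription and message processing, 9 were tested and 1 was called higher in basal ChIP (4.24% of all tested genes) and 0 lower (4.06%). The called gene was Zfp473, a U7 particle partner, with 39 ChIP and 15 input reads in basal cells (1.14, log2 interval 0.00 to 2.42). The basal median was -0.00, and the lowest was Coil, a Cajal body scaffold (-0.82, 22 over 33). In luminal cells 8 of 9 lay above 0 with a median of 0.28, beside 11476 of 23128 and -0.00 for all tested genes, and none was called. Npat itself had 14 and 17 reads in basal and 21 and 21 in luminal cells, too few to show a 1.5-fold difference.

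Of 22 genes listed for histone chaperones and deposition, 19 were tested, with 1 called higher and 1 lower in basal ChIP, beside the same shares of all tested genes. The 19 include Cenpa, which encodes the centromere variant of H3 and not a chaperone. Npm1, a nucleolar histone chaperone, was higher in basal ChIP with 314 over 171 reads (0.64), had 202 over 285 in luminal cells (-0.05), and differed between them by 0.69. Hira, which places H3.3, was lower in basal ChIP with 14 over 34 reads (-1.52), and had 14 over 35 in luminal cells (-0.88). In luminal cells none of the 19 was called, and the highest were Nap1l4 and Supt16 at 0.51. The medians were 0.19 in basal and 0.05 in luminal cells.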

How the data were processed

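Raw read counts per gene were deposited by the authors, 1 table for the series and 1 file per library, equal for 24548 of 24548 genes. Per the submitters' processing notes, reads were counted with featureCounts on mm10; aligner, versions, duplicate treatment and counted region were not given in the sources used here. Per the labels' protocols, single reads of 75 to 85 bp came from TruSeq libraries. Genes with 40 or more counts over the 4 libraries were scaled with TMM (edgeR 4.0.16, R 4.3.3). Ratios, Clopper-Pearson intervals at 99% and calls at 1.5-fold were computed in Python 3.11.15 (numpy 2.4.6, pandas 2.3.3, scipy 1.17.1, matplotlib 3.10.9). The code was run on simulated counts with counting error only. That run checks the computation and not the extra spread seen among olfactory receptor genes. A difference between cell types used counts plus 0.5 and a normal interval. PCR copies are not independent molecules, so intervals cover counting error only.

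Gene positions came from RefSeq GRCm38.p6 (24480 of 24548 gene IDs; strands for 18250). Windows were tried in steps of 1000 bp up to 5000 bp each way, and predictions used the median of 363 input reads of 9314 genes with no other start within 20000 bp. Upstream bases were compared at shifts of up to 100 bases. Named genes were all tested lone variants, each called histone gene, and the highest and lowest of each clustered class; other genes were named after their values were seen. Members, lists and the window were chosen with earlier results of these data known. Alternatives were total-count and DESeq2 1.42.0 scaling, centring on olfactory receptor genes, summed inputs, 2 other count filters, a 2-fold limit, a widened interval and, for medians and sums, other memberships.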

Additional observations from a re-analysis of the deposited data

Results flagged for a closer look

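The difference between basal and luminal ratios had a 99% counting interval that excluded 0, at 1.5-fold or more, for 6 histone genes. Lower in basal cells were Hist1h2ah (-2.27), Hist1h2bk (-1.61), H1f0 (-0.91) and H2afy (-0.59). Higher in basal cells were Hist1h4i (1.20) and Hist1h1d (0.81). With 1 library per group, these compare libraries and were not checked against replicates.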

How the results depend on the processing

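Counts of called histone genes, the clustered and lone medians, the sums of the 4 loci and the called genes were recomputed under alternative settings; class, block, germ-cell and pathway values and the input comparison were not. Of the counts, medians and sums, 102 stayed and 28 moved, and no called gene changed direction. Of 82 medians and sums compared, 11 changed sign, none of them a called value: the 3 clustered medians (centred; the difference also at 100 or more counts, 0.0446), the lone luminal median (centred, 0.0587; 100 or more counts, 0.0210), the lone difference median and the basal Hist2 sum (summed inputs, the latter -0.00497), and the Hist1 sums (total counts, -0.0510 and -0.0205; basal with summed inputs, -0.0527). Genes called higher in basal cells numbered 1 with total-count scaling, 1 with summed inputs, 1 at 100 or more counts (each time Hist4h4), 0 at 2-fold and 6 when centred on olfactory receptor genes, which lay at -0.21 in basal and -0.07 in luminal cells. Genes called lower in basal cells numbered 1 when centred, 4 with summed inputs and 0 with the widened interval. In luminal cells 1 gene was higher with summed inputs, and lower calls fell to 0 with the widened interval and 2 at 2-fold. Differences higher in basal cells numbered 1 with total counts, 4 when centred, 0 with summed inputs, 0 with the widened interval and 1 at 2-fold. Lower differences numbered 1 when centred, 0 with the widened interval and 2 at 2-fold. Centring moved the clustered medians to 0.0825 (basal), 0.00879 (luminal) and 0.12 (difference), the lone medians to 0.38 (basal) and 0.29 (difference), and the basal Hist1 sum to 0.22. Summed inputs moved the clustered basal median to -0.22 and the difference medians to -0.20 (clustered) and -8.01812e-05 (lone). Centring and summed inputs change the reference by construction. The widened interval used variances 2.288 and 2.128 times counting error, as among 1089 olfactory receptor genes, and the 2 basal higher calls were kept. The Hist4h4 call was kept in 7 of 8 settings and that of H3f3a in 4 of 8. With summed inputs the log2 ratio of Hist4h4 fell from 0.72 to 0.59, close to the 1.5-fold limit. No library could be left out with 1 per group. No paired analysis was possible because each group holds 1 library. Low depth limits the clustered genes most: 20 had no reads, 3 had 1 to 39, and 21 of 46 tested had under 150.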
